A study of Mus musculus with 41 samples.

Results

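The smooth muscle contractile genes are the 9 genes *Acta2*, *Actg2*, *Tagln*, *Cnn1*, *Myh11*, *Myl9*, *Tpm2*, *Smtn* and *Lmod1*, which encode the actins, the myosin and the filament-binding proteins of the smooth muscle contractile apparatus. They were taken by symbol, and all 9 were found among the 22438 genes with footprint counts and the 55385 genes with RNA counts. The study asked how loss of *Hbs1l* and *Pelo*, which encode partners that rescue stalled ribosomes, and of *Upf2*, which encodes a factor of nonsense-mediated decay, alters translation and gene expression. It comprises 41 libraries, of which 30 hold ribosome-protected fragments (RPFs, here called footprints), the pieces of mRNA that translating ribosomes shield from nuclease, and 11 hold RNA. Footprints were counted on coding sequences, and RNA was quantified per transcript.

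Whole embryos at E8.5 were C57BL/6NJ, with 3 pools of 5 *Hbs1l* -/- embryos, homozygous for a deletion of exon 5, and 3 pools of 5 wild-type embryos. Cerebella at P14 were C57BL/6J, from 3 Atoh-Cre;Hbs1l cKO and 3 Atoh-Cre;Hbs1l +/+ mice, with 1 mouse per library. This *Cre* acts in granule cell precursors, and the study's methods give the cKO as *Hbs1l* fl/-. Cells of the cKO cerebellum in which the *Cre* does not act, vessel muscle among them, are therefore heterozygous for *Hbs1l*, whereas the controls are +/+. The cKO mice were homozygous for the C57BL/6J mutation in the tRNA gene *n-Tr20*. Primary mouse embryonic fibroblasts (MEFs) were C57BL/6, carried the tamoxifen-inducible CAG-Cre ER transgene in every group, controls included, and all received tamoxifen. By the study's methods all MEFs, controls too, were homozygous for that *n-Tr20* mutation, and the mutants were *Hbs1l* fl/-, *Pelo* fl/fl or *Upf2* fl/fl before tamoxifen. Each replicate came from 1 embryo. Footprints of MEFs came from 3 libraries for each mutant and 3 controls for each of the 3 batches in which the mutants were sequenced. RNA of MEFs came from 3 control, 3 *Hbs1l*-/-, 2 *Pelo*-/- and 3 *Upf2* libraries of a single batch.

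Totals per library lay between 2634480 and 7298812 footprints in embryos, 10919139 and 22591768 in cerebella and 5782990 and 25607974 in MEFs. RNA libraries held 22713643 to 86425762 estimated counts. Levels are CPM, counts scaled to the library total with TMM factors. The targeted genes were checked first. *Hbs1l* footprints in embryos were 2.98, 2.77 and 9.07 CPM in *Hbs1l*-/- and 60, 52.5 and 50.6 CPM in wild-type libraries, and in *Hbs1l*-/- MEFs they were 2.59, 1.68 and 1.51 against 35.4, 39.5 and 32.7 CPM. In the cerebellum they remained at 12.8 to 15.7 CPM in the cKO against 37.8 to 44.7 CPM. *Pelo* footprints were 2.82, 3.00 and 2.00 CPM in *Pelo*-/- MEFs against 34.8, 38.5 and 31.9 CPM. *Upf2* went against its label: its footprints were 114, 113 and 118 CPM in the libraries labelled *Upf2* cKO against 54.7, 48.8 and 58.1 CPM, and its RNA was 63.0, 43.0 and 30.0 against 15.7, 21.4 and 16.7 CPM. These counts span the whole coding sequence or all transcripts of the gene and do not report on a single deleted exon. The paper reports that transcripts of nonsense-mediated decay and those with retained introns accumulated in its *Upf2*-/- cells and not in *Pelo*-/- cells. Same-numbered control libraries of the 3 MEF batches were near repeats of each other, with a chi-square per gene of 1.1 to 1.19 over 9 pairs against 4.06 to 12.6 over the 27 pairs with different numbers, so that the footprint comparisons of the 3 mutants share their controls in effect.

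Smooth muscle shortens when bundles of myosin pull on actin filaments, once myosin light chain kinase has phosphorylated the regulatory light chain. The genes of the apparatus are switched on together by serum response factor (SRF), which binds CArG boxes near their start sites and works with the coactivators myocardin and the myocardin-related transcription factors. Fibroblasts in culture switch on the same genes as they become myofibroblasts, with smooth muscle actin in their stress fibres and TGF-beta as a known inducer. Among the members, *Acta2* and *Actg2* encode the smooth muscle alpha and gamma actins. *Myh11* encodes the smooth muscle myosin heavy chain and *Myl9* its regulatory light chain. *Tpm2* encodes beta-tropomyosin and *Cnn1* calponin, which lie along the thin filament. *Tagln* encodes transgelin (SM22-alpha), *Smtn* smoothelin and *Lmod1* leiomodin, which bind actin.

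The positions of the genes are those of Gencode M21 on GRCm38. *Acta2* (ENSMUSG00000035783.9) lies at chr19:34241090-34255590 and *Actg2* (ENSMUSG00000059430.14) at chr6:83512905-83536265, both on the minus strand. *Myh11* (ENSMUSG00000018830.10) lies at chr16:14194535-14291372 on the minus strand and has the longest coding sequence of the 9, with 5965 bases over all its transcripts, and *Myl9* (ENSMUSG00000067818.6) at chr2:156775420-156781658 on the plus strand has the shortest, with 516. *Tpm2* (ENSMUSG00000028464.16) lies at chr4:43514711-43523765 and *Smtn* (ENSMUSG00000020439.17) at chr11:3517523-3540612, both on the minus strand. *Cnn1* (ENSMUSG00000001349.5), at chr9:22099216-22109630 on the plus strand, and *Tagln* (ENSMUSG00000032085.5), at chr9:45929619-45936058 on the minus strand, share chromosome 9. *Lmod1* (ENSMUSG00000048096.7) lies at chr1:135324807-135368065 on the plus strand. Members with close paralogues can share reads with them. Of the 28-base windows of coding sequence, 3.99% of *Acta2*, 3.22% of *Actg2*, 1.37% of *Myh11*, 1.64% of *Myl9*, 1.29% of *Tpm2* and 0.12% of *Smtn* also occur in transcripts of other genes, among them *Actg1* for *Acta2*, *Actc1* and *Acta1* for *Actg2*, *Myh9* for *Myh11* and *Tpm1* for *Tpm2*. For *Tagln*, *Cnn1* and *Lmod1* there were 0 such windows.

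Control MEFs held the members at widely different levels. As RPKM, footprints per kilobase of coding sequence scaled to the library's total, the mean in the 3 controls sequenced with *Hbs1l*-/- cells was 13320 ± 951 (SD, n = 3) for *Acta2*, 8770 ± 678 for *Tagln*, 2333 ± 118 for *Actg2*, 2048 ± 249 for *Myl9*, 1088 ± 108 for *Tpm2* and 622 ± 36.0 for *Cnn1*. The other members were far lower, with 82.5 ± 3.41 for *Lmod1*, 49.1 ± 2.79 for *Smtn* and 36.0 ± 7.76 for *Myh11*. *Actg2* and *Myl9* overlapped in this order, with ranges of 2208 to 2441 and 1840 to 2324, while the ranges of the other neighbours did not overlap. By footprints per kilobase over all 9 controls, *Acta2* ranked 4, *Tagln* 5, *Actg2* 22 and *Myl9* 28 among 9458 genes, and *Myh11* ranked 3382. The ratio of footprint RPKM to RNA TPM ran from 0.934 for *Smtn* to 2.30 for *Lmod1*, and the median of all these genes was 1.80.

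In E8.5 wild-type embryos the order was led by *Acta2* at 537 RPKM, *Tagln* at 187 and *Myl9* at 174, with *Actg2* at 3.84, *Lmod1* at 2.25 and *Myh11* at 0.300. In control cerebella the order was led by *Myl9* at 53.7, with *Acta2* at 27.3 ± 9.52 (SD, n = 3), *Tpm2* at 25 and *Tagln* at 17.0 RPKM. The other 5 members lay between 0.429 for *Lmod1* and 3.99 for *Smtn* there. *Acta2* was thus the highest member in MEFs and embryos and not in cerebella. Footprint levels of the tissues were scaled separately, and no test was made between them.

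**Figure D1:**
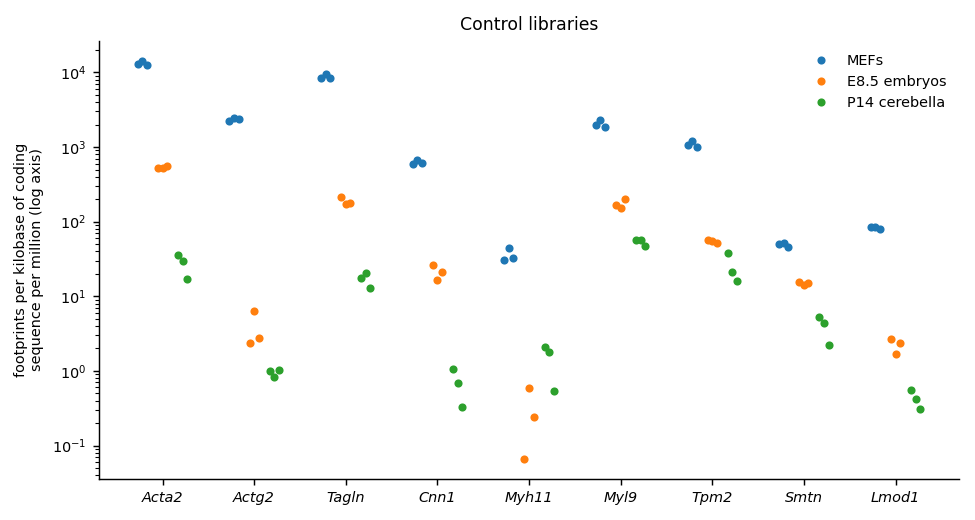
Footprints per kilobase of coding sequence, scaled to the library's total (RPKM, log axis), on each member in the 3 control libraries of MEFs (the controls sequenced with *Hbs1l*-/- cells), E8.5 embryos and P14 cerebella. Each point is 1 library. MEFs span 36.0 for *Myh11* to 13320 for *Acta2* (means), and in cerebella the highest member is *Myl9*.

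As a description of the sequence near the start sites, promoters from RefSeq on GRCm38.p6, 250 bases before to 50 bases after the start, were found for 6 of the 9 members. *Actg2*, *Tagln* and *Myh11* are named only. They were searched for the CArG box, written as CC, then 6 bases that are each A or T, then GG, which is read alike on both strands, and for CATTCC on both strands, the letters of the MCAT element bound by TEAD factors. A full CArG box is found in 1.63% of 32851 promoters of this length, a CArG box with at most 1 mismatch in 21.1% and CATTCC in 14.7%. The *Acta2*, *Cnn1*, *Myl9* and *Lmod1* promoters are shown because their genes had fewer footprints in *Hbs1l*-/- and *Pelo*-/- MEFs, and that of *Smtn* because its footprints passed no test there. Capitals mark the matches.
Acta2 (chr19:34255324-34255623, minus strand): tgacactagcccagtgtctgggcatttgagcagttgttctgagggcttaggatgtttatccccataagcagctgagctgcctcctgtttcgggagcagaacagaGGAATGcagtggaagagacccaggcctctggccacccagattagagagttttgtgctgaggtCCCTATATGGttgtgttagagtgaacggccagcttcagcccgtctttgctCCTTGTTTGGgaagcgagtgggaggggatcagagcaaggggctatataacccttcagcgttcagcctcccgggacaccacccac
Cnn1 (chr9:22099003-22099302, plus strand): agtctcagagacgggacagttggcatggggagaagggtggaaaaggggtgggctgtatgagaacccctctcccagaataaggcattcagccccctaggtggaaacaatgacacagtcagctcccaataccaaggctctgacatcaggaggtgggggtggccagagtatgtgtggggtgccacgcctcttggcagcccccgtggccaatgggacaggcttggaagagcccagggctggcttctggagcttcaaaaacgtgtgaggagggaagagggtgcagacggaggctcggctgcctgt
Myl9 (chr2:156775214-156775513, plus strand): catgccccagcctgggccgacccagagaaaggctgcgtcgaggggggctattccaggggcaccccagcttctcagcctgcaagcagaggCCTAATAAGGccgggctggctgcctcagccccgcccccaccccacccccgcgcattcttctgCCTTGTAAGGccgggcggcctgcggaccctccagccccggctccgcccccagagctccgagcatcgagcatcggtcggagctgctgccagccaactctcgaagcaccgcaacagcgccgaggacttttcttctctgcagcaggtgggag
Lmod1 (chr1:135324563-135324862, plus strand): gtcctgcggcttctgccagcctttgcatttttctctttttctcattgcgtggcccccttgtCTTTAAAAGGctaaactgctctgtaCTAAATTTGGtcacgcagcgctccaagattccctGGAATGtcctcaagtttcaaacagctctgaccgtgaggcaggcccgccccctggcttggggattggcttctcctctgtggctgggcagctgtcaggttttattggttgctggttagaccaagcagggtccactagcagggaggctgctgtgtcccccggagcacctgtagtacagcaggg
Smtn (chr11:3539243-3539542, minus strand): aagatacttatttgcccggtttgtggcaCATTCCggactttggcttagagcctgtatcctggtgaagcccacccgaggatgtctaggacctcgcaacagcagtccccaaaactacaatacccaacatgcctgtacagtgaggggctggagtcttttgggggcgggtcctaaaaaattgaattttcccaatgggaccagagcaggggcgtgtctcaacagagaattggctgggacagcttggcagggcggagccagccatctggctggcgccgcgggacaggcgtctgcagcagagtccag

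The *Myl9* promoter holds the only full CArG box of the 6, CCTAATAAGG, which begins at -161 from the start, and a second with 1 mismatch, CCTTGTAAGG, at -99. *Acta2* holds CArG boxes with 1 mismatch, CCCTATATGG and CCTTGTTTGG, at -84 and -34, and CATTCC on the opposite strand (GGAATG) at -146. *Lmod1* holds 2 with 1 mismatch, at -189 and -164, and GGAATG at -130. *Smtn* has CATTCC at -222 and no CArG match, and *Cnn1* and *Tpm2* have no match in this window. These are matches of letters and were not tested for binding.

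Loss of *Hbs1l* in MEFs lowered footprints on every member but *Smtn*. Of the 9 members, 8 passed the test, all lower, with log2 fold changes of -0.59 to -1.20, whereas 34.1% of the 11984 genes tested passed, 16.7% of them all being lower. The median over the members was -0.72, beside -0.01 over all genes tested, and their footprints together were 15662 ± 895 CPM (SD, n = 3) against 26321 ± 1902 CPM in controls.

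Smooth muscle alpha actin, *Acta2*, had 8756, 9169 and 9492 CPM in *Hbs1l*-/- MEFs and 14647, 16287 and 14262 CPM in controls, and fell by 39.3% (log2 fold change -0.72, SE 0.06, adjusted p = 4.24e-06, edgeR). The gamma actin *Actg2* had 1025, 1136 and 1353 CPM against 2550, 2820 and 2714 CPM and fell by 1.20 on the log2 scale (SE 0.09, adjusted p = 1.13e-06, edgeR), the most of the 9. Neither actin overlapped between the groups. The myosin heavy chain *Myh11* had 91.6, 133 and 132 CPM against 183, 268 and 194 CPM (log2 fold change -0.87, SE 0.15, adjusted p = 0.000525, edgeR). Its light chain *Myl9* had 511, 514 and 539 CPM against 1022, 1199 and 950 CPM (log2 fold change -1.02, SE 0.08, adjusted p = 1.69e-06, edgeR). Both myosin subunits were lower in each mutant library than in any control. On the thin filament, *Cnn1* had 274, 273 and 341 CPM against 567, 634 and 586 CPM and fell by 50.2%. *Tpm2* had 753, 704 and 729 CPM against 1069, 1216 and 1003 CPM and fell by 33.5%, the least among the 8. Again the groups stood apart. Of the other actin-binding genes, *Tagln* had 3058, 3508 and 3684 CPM against 5100, 5757 and 5007 CPM (log2 fold change -0.63, SE 0.08). *Lmod1* had 96.4, 83.3 and 90.7 CPM against 150, 151 and 140 CPM (log2 fold change -0.70, SE 0.07). *Smtn* stood alone, with 181, 181 and 177 CPM in *Hbs1l*-/- MEFs and 165, 170 and 152 CPM in controls. All 3 mutant libraries of *Smtn* were above the controls, and the difference did not pass the test (log2 fold change 0.14, SE 0.07, adjusted p = 0.111, edgeR).

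In *Pelo*-/- MEFs 7 members passed, all lower, whereas 44.1% of 12486 genes passed, with 21.2% lower. The members' median was -0.86 and that of all genes 0.00. *Actg2* again had the largest change, with 953, 1062 and 625 CPM against 2545, 2805 and 2731 CPM (log2 fold change -1.62, SE 0.16, adjusted p = 3.43e-05, edgeR). *Acta2* had 9622, 11161 and 7865 CPM against 14627, 16221 and 14176 CPM (log2 fold change -0.65, SE 0.12, adjusted p = 0.00146, edgeR). The spread between *Pelo*-/- libraries was wider than between *Hbs1l*-/- libraries in these genes, and replicate 3 was the lowest in all 9 members. *Myh11* had 136, 138 and 82.3 CPM against 185, 274 and 204 CPM (log2 fold change -0.90, SE 0.19). *Myl9* had 549, 645 and 449 CPM against 1014, 1194 and 932 CPM (log2 fold change -0.94, SE 0.13). Both myosin subunits thus fell without overlap, as did calponin and the actin binders that follow. *Cnn1* had 279, 366 and 189 CPM against 537, 633 and 596 CPM (log2 fold change -1.09, SE 0.19). *Tagln* had 3146, 3709 and 2573 CPM against 5115, 5773 and 5037 CPM (log2 fold change -0.76, SE 0.12). *Lmod1* had 75.1, 102 and 70.6 CPM against 151, 158 and 136 CPM (log2 fold change -0.85, SE 0.13). The adjusted p values of these 5 genes lay between 0.000282 and 0.00396 (edgeR). The 2 members that did not pass overlapped with their controls. *Tpm2* had 906, 1097 and 750 CPM against 1068, 1208 and 995 CPM (log2 fold change -0.25, SE 0.13, adjusted p = 0.131, edgeR), and it passed without *Pelo*-/- replicate 2 (adjusted p = 0.0137). *Smtn* had 161, 175 and 138 CPM against 163, 167 and 154 CPM (log2 fold change -0.03, SE 0.09, adjusted p = 0.794, edgeR).

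In the libraries labelled *Upf2* cKO, 6 members were lower and 2 higher, whereas 43.4% of 12166 genes passed, with 21.1% lower and 22.3% higher. The members' median was -0.46, beside 0.00 over all genes. Both actins fell by similar amounts, *Acta2* with 7344, 8373 and 9960 CPM against 14612, 16313 and 14321 CPM (log2 fold change -0.82, SE 0.10, adjusted p = 9.09e-05, edgeR). *Actg2* had 1270, 1504 and 1771 CPM against 2594, 2831 and 2726 CPM (log2 fold change -0.84, SE 0.10, adjusted p = 6.42e-05, edgeR). The myosin subunits went opposite ways. *Myh11* had 230, 292 and 342 CPM against 183, 266 and 196 CPM, overlapping groups, and passed as higher (log2 fold change 0.42, SE 0.15, adjusted p = 0.0392, edgeR). *Myl9* had 665, 759 and 863 CPM against 1011, 1190 and 952 CPM and was lower (log2 fold change -0.46, SE 0.10, adjusted p = 0.00331, edgeR). The heavy chain's call was lost with DESeq2 (adjusted p = 0.175), with controls summed over batches (0.0509) and without replicate 2 or 3 of the mutant or replicate 1 or 3 of the controls (0.0951 to 0.159). *Cnn1* had 285, 348 and 434 CPM against 557, 641 and 590 CPM (log2 fold change -0.74, SE 0.12). *Tagln* had 3293, 4020 and 4291 CPM against 5138, 5824 and 5076 CPM (log2 fold change -0.47, SE 0.10). *Tpm2* had 732, 886 and 848 CPM against 1055, 1210 and 1002 CPM (log2 fold change -0.40, SE 0.09). These 3 fell without overlap, with adjusted p between 0.000493 and 0.003 (edgeR). *Lmod1* had 102, 134 and 149 CPM against 150, 157 and 138 CPM and did not pass (log2 fold change -0.20, SE 0.11, adjusted p = 0.158, edgeR), though it did without mutant replicate 3 (adjusted p = 0.0378). *Smtn* had 196, 170 and 193 CPM against 166, 167 and 153 CPM and passed as higher (log2 fold change 0.20, SE 0.07, adjusted p = 0.0456, edgeR). That call was lost with DESeq2 (adjusted p = 0.0732), without the filter on low counts (0.0634) and without replicate 1 or 3 of either group (0.0954 to 0.145).

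**Figure D2:**
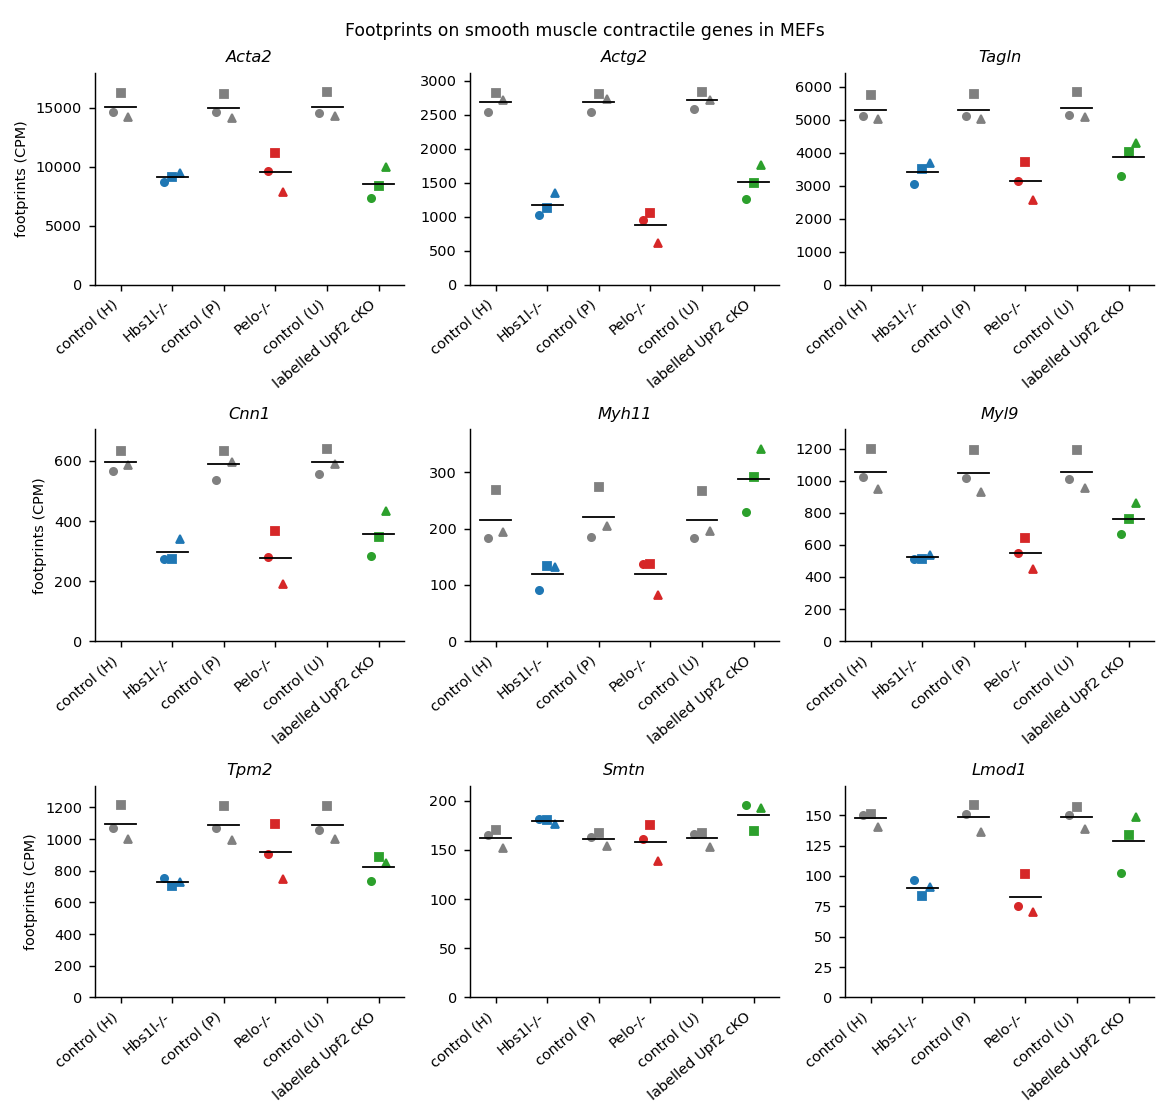
Footprints (CPM) on each member in MEFs, for each mutant beside the 3 controls of its own batch (H with *Hbs1l*, P with *Pelo*, U with *Upf2*). Each point is 1 library, its shape the replicate number, and lines are means; *Actg2* libraries lie between 625 and 1771 CPM in mutants and at 2545 CPM or more in controls, while *Smtn* stays between 138 and 196 CPM throughout.

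Among genes outside the set, those with the footprint pattern most like the members' were found by the Pearson correlation of log2 CPM with the members' mean over the 18 MEF footprint libraries. They included *Tgfb3* (0.981), *Fgd3* (0.973), *Aif1l* (0.968), *Ankrd50* (0.967), *Synpo2* (0.964), *Pappa* (0.964) and *Fn1* (0.963). Among the members the correlation with the same mean, to which each contributes, was 0.988 for *Myl9*, 0.987 for *Tagln*, 0.979 for *Cnn1* and 0.972 for *Actg2*. It was 0.958 for *Lmod1*, 0.883 for *Acta2*, 0.834 for *Tpm2*, 0.783 for *Myh11* and -0.04 for *Smtn*. The 18 libraries fall into mutants and near-repeated controls, so that the values describe that contrast and carry no test.

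RNA was measured in separate dishes and libraries. In *Hbs1l*-/- MEFs 8 members passed, all lower, whereas 23.1% of 15318 genes passed, with 10.4% lower. The members' median was -0.65 and that of all genes -0.01. *Acta2* RNA was 8198, 7212 and 8678 CPM against 13304, 11364 and 13015 CPM in controls (log2 fold change -0.65, SE 0.12, adjusted p = 0.0057, edgeR). *Actg2* RNA was 768, 760 and 984 CPM against 1846, 1527 and 1854 CPM (log2 fold change -1.06, SE 0.13, adjusted p = 0.00153, edgeR). *Myh11*, with 37.1, 49.7 and 43.3 CPM against 103, 105 and 125 CPM, had the largest fall in RNA (log2 fold change -1.36, SE 0.12, adjusted p = 0.000641, edgeR). The groups did not overlap in any of the 8, and the share of all genes without overlap was not counted. *Myl9* RNA was 519, 482 and 539 CPM against 1117, 885 and 1048 CPM (log2 fold change -0.99, SE 0.11). *Cnn1* RNA was 362, 332 and 442 CPM against 717, 546 and 648 CPM (log2 fold change -0.76, SE 0.14). *Tpm2* RNA was 797, 671 and 710 CPM against 1138, 948 and 1150 CPM (log2 fold change -0.57, SE 0.12). The thin-filament genes thus fell in RNA as well. *Tagln* RNA was 3204, 3084 and 3696 CPM against 5600, 4250 and 5030 CPM (log2 fold change -0.58, SE 0.13, adjusted p = 0.0138, edgeR), a call lost without replicate 1 of *Hbs1l*-/- (0.0531) or of the controls (0.0509). *Lmod1* RNA was 109, 91.6 and 93.2 CPM against 132, 134 and 143 CPM (log2 fold change -0.48, SE 0.10). *Smtn* RNA was 215, 178 and 199 CPM against 148, 176 and 183 CPM, which overlapped and did not pass (log2 fold change 0.22, SE 0.11, adjusted p = 0.186, edgeR).

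RNA of *Pelo*-/- MEFs, with 2 libraries, changed in fewer members. *Actg2* and *Myl9* passed, both lower, where 32.1% of 14705 genes passed, with 16.6% lower, and the members' median was -0.23. *Actg2* was 1275 and 1159 CPM (log2 fold change -0.50, SE 0.11, adjusted p = 0.0161, edgeR) and *Myl9* 704 and 758 CPM (log2 fold change -0.46, SE 0.12, adjusted p = 0.0233, edgeR). Both calls were lost without either *Pelo*-/- library, which leaves 1 that is assumed to vary like the controls (adjusted p 0.0811 to 0.177). *Myl9* also lost it without control replicate 3 (0.0525). *Acta2* was 10263 and 10396 CPM, below all 3 controls (log2 fold change -0.27, SE 0.09, adjusted p = 0.0622, edgeR). *Cnn1*, 543 and 531 CPM, and *Tpm2*, 867 and 895 CPM, were also below all controls without passing. The remaining members did not pass either. *Tagln* was 4618 and 4776 CPM, *Myh11* 113 and 95.0 CPM, *Smtn* 182 and 186 CPM, all within the controls' range or beside it, and *Lmod1*, 150 and 154 CPM, lay above the controls (log2 fold change 0.17, SE 0.08, adjusted p = 0.126, edgeR).

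In RNA of the libraries labelled *Upf2* cKO, *Acta2* and *Myh11* passed, both lower, where 20% of 15983 genes passed, with 6.76% lower. The members' median was -0.29. *Myh11* was 69.7, 63.1 and 56.9 CPM (log2 fold change -0.82, SE 0.12, adjusted p = 0.000904, edgeR), below every control. *Acta2* was 9076, 7857 and 9780 CPM (log2 fold change -0.51, SE 0.13, adjusted p = 0.0178, edgeR), a call lost without mutant replicate 2 (0.0865) or control replicate 1 (0.0623). *Myl9*, 1157, 790 and 1011 CPM, overlapped with controls (log2 fold change -0.06, SE 0.16, adjusted p = 0.831, edgeR). Of the others, *Tpm2* (921, 731 and 824 CPM) lay below the controls without passing (log2 fold change -0.40, SE 0.13, adjusted p = 0.0607, edgeR). *Actg2* (1227, 1240 and 1564 CPM), *Tagln* (4465, 3645 and 4244 CPM), *Cnn1* (548, 468 and 559 CPM), *Smtn* (131, 146 and 162 CPM) and *Lmod1* (167, 136 and 149 CPM) overlapped with them.

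**Figure D3:**
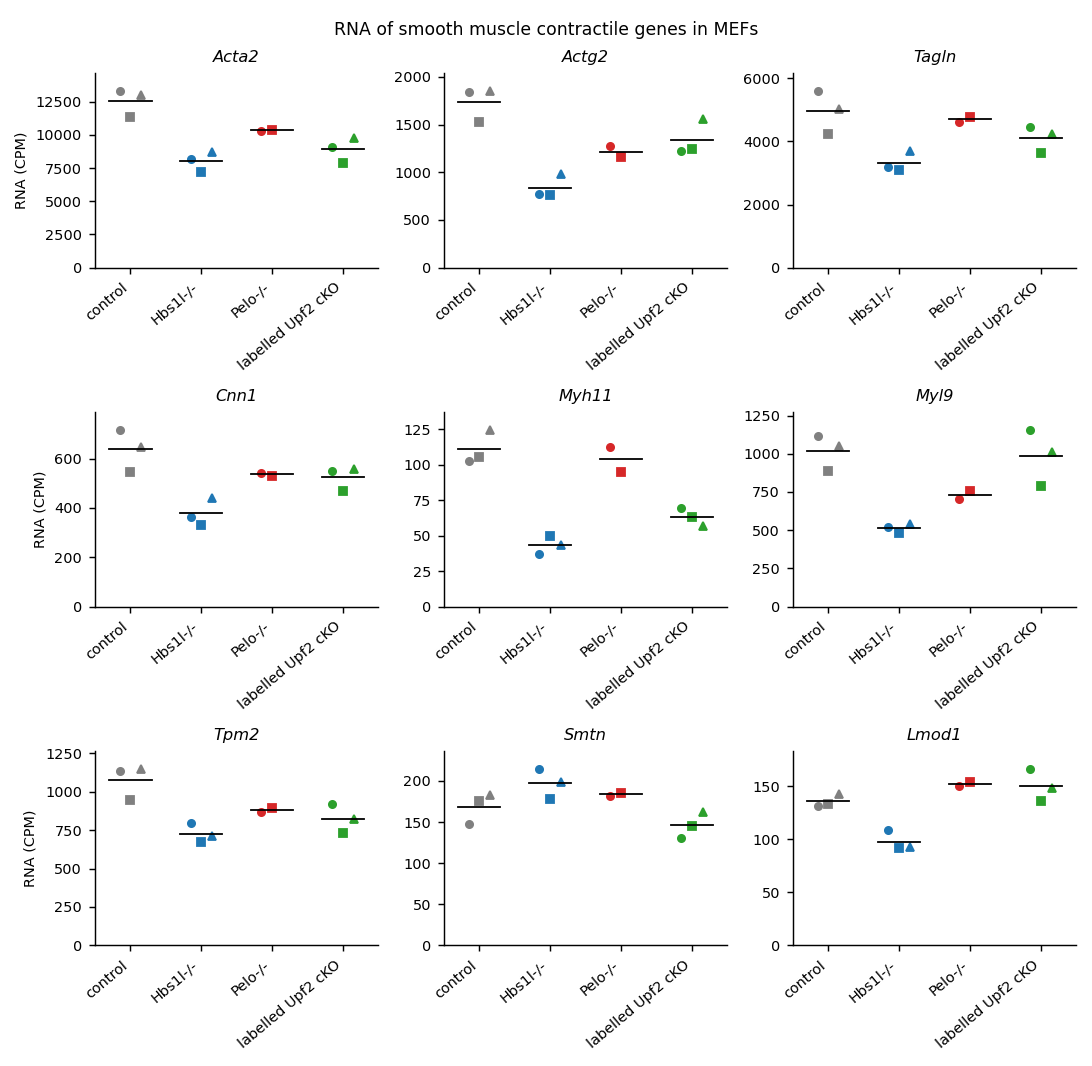
RNA (CPM) of each member in MEFs, by genotype. Each point is 1 library, its shape the replicate number, and lines are means. *Hbs1l*-/- libraries lie below the controls in 8 panels, *Smtn* being the exception, and *Myh11* is at 37.1 to 49.7 CPM there against 95.0 and 113 CPM in *Pelo*-/- libraries.

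Coding transcripts made up most of each member's TPM. *Actg2-201*, *Myh11-201*, *Tpm2-203* and *Lmod1-201* held 98.3%, 97.5%, 95.4% and 100% of their genes in controls. *Acta2-201* made up 80.7% ± 1.06 (SD, n = 3) of *Acta2* in controls and 84.0% ± 2.83 in *Hbs1l*-/- cells, and *Acta2-202* the other 19.3% and 16.0%. *Tagln-201* and *Tagln-202* held 86.7% and 13.2% of *Tagln* in controls. *Myl9-201* held 91.7% and *Myl9-203*, a processed transcript without a coding sequence, 8.14% of *Myl9*. *Cnn1-201*, *Cnn1-205*, *Cnn1-203* and *Cnn1-202* held 40.2%, 41.4%, 11.0% and 6.93% of *Cnn1*, and *Smtn-202* held 85.6% of *Smtn*. *Smtn-203*, another coding transcript, was 5.16% ± 1.42 of *Smtn* in controls and 1.33% ± 0.624 in *Hbs1l*-/- cells, with TPM of 2.31 to 2.83 and 0.596 to 1.22. No member has a transcript annotated as a target of nonsense-mediated decay. Transcripts with a retained intron, named after their values were seen and under the minimum share of 5%, are *Myh11-203* and *Tagln-203*. *Myh11-203* was at 0 to 0.0388 TPM over all libraries. *Tagln-203* was at 6.00, 6.66 and 6.60 TPM in controls, 6.70, 7.75 and 4.42 in *Hbs1l*-/-, 8.87 and 9.31 in *Pelo*-/-, and 20.2, 14.4 and 17.6 TPM in the libraries labelled *Upf2* cKO, where it stayed under 1% of *Tagln*. The highest values of *Tagln-203* were those of the last group, and no test was made.

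Translational efficiency (TE) is the footprint change beyond the RNA change, given by the interaction term of a model over both assays. For *Hbs1l*-/- MEFs no member passed (edgeR), where 0.0152% of 13146 genes passed, and DESeq2 called none. An unadjusted p under 0.05 was found for 1 of the 9 members and for 16.1% of all genes. The members' log2 TE changes ran from -0.24 for *Cnn1* to 0.51 for *Myh11* (SE 0.23), with a median of -0.06. Footprints and RNA of *Acta2* thus changed alike within the error (TE -0.06, SE 0.14), as did those of *Myl9* (-0.01, SE 0.15) and *Tpm2* (0.00, SE 0.15).

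For *Pelo*-/- MEFs 5 members passed, all with lower TE, whereas 40.5% of 13701 genes passed, with 18.6% lower. The members' median was -0.69, beside 0.05 over all genes. *Actg2* had the largest TE change (log2 -1.11, SE 0.23, adjusted p = 0.00181, edgeR), followed by *Lmod1* (-1.02, SE 0.17, adjusted p = 0.000471). *Cnn1* (-0.85, SE 0.27, adjusted p = 0.0213), *Myh11* (-0.81, SE 0.27, adjusted p = 0.0299) and *Tagln* (-0.69, SE 0.19, adjusted p = 0.0113) also passed by edgeR. *Cnn1* lost its call without either *Pelo*-/- RNA library (0.0558 and 0.0568). *Myh11* lost it without *Pelo*-/- RNA replicate 1 (0.107), control RNA replicate 1 or 2 (0.0537 and 0.0531) or footprint control replicate 2 (0.0719). *Acta2* (-0.38, SE 0.17, adjusted p = 0.0938), *Myl9* (-0.47, SE 0.20, adjusted p = 0.0707), *Smtn* (-0.16, SE 0.15) and *Tpm2* (0.03, SE 0.19) did not pass by edgeR.

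For the libraries labelled *Upf2* cKO only *Myh11* passed, with higher TE (log2 1.24, SE 0.21, adjusted p = 0.00215, edgeR), where 18% of 13302 genes passed, 7.60% of them all being higher. The myosin heavy chain had more footprints and less RNA than its controls there. The other members had TE changes of -0.47 (*Actg2* and *Cnn1*) to 0.41 (*Smtn*, SE 0.15, adjusted p = 0.0657, edgeR), and the median over the 9 was -0.32.

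**Figure D4:**
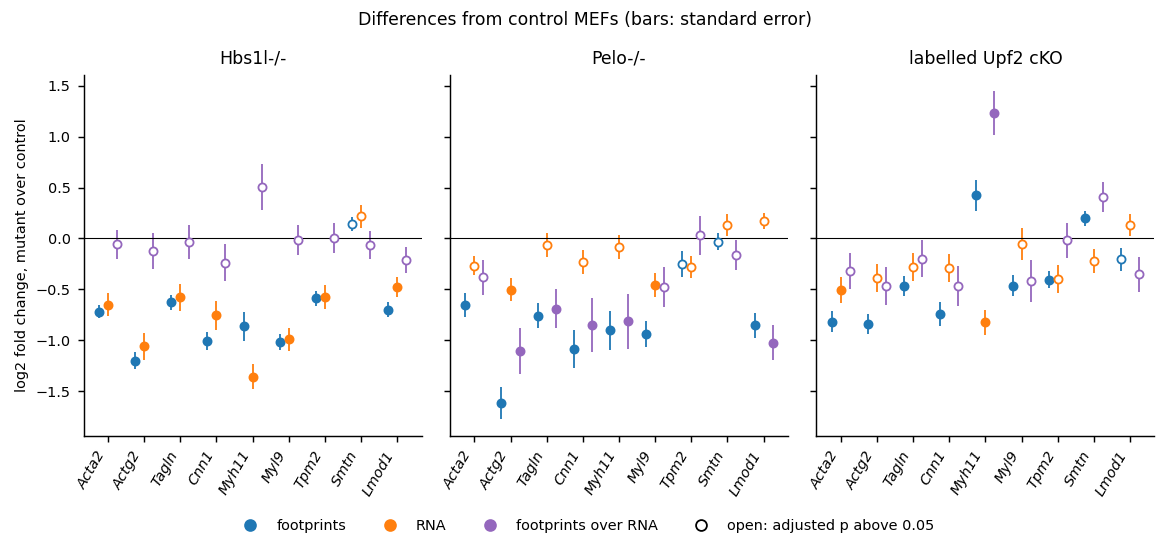
Log2 fold change of each member in MEFs against controls, for footprints, RNA and footprints over RNA (TE). Bars are standard errors and filled points passed at an adjusted p of 0.05 (edgeR). In *Hbs1l*-/- cells footprints and RNA lie close together except for *Myh11* (footprints -0.87, RNA -1.36, TE 0.51, not passing), whereas in *Pelo*-/- cells footprints lie below RNA for all members but *Tpm2*, and TE passed for *Actg2*, *Tagln*, *Cnn1*, *Myh11* and *Lmod1*.

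The mutants were then compared with each other. For footprints, no member differed between *Pelo*-/- and *Hbs1l*-/- effects (edgeR), where 5.55% of 12526 genes passed, and DESeq2 called none. An unadjusted p under 0.05 was found for 1 member and for 19.3% of all genes. The differences, *Pelo* minus *Hbs1l*, ran from -0.41 for *Actg2* (SE 0.20) to 0.34 for *Tpm2* (SE 0.16). Between the libraries labelled *Upf2* cKO and *Hbs1l*-/-, *Myh11* (1.29, SE 0.26, adjusted p = 0.00824, edgeR) and *Myl9* (0.56, SE 0.14, adjusted p = 0.034, edgeR) differed, 2 of 9 members where 4.93% of 12334 genes passed. The myosin subunits thus fell less, or not at all, in the libraries labelled *Upf2* cKO. *Myl9* lost the call without most single libraries: replicate 1, 2 or 3 of *Hbs1l*-/-, 1 or 2 of its controls, 2 or 3 of the *Upf2* cKO and 1 or 3 of its controls (adjusted p 0.0569 to 0.0916). Against *Pelo*-/-, the libraries labelled *Upf2* cKO differed in *Myh11* (1.32, SE 0.29, adjusted p = 0.0091), *Actg2* (0.77, SE 0.21, adjusted p = 0.0297) and *Lmod1* (0.65, SE 0.19, adjusted p = 0.0403) by edgeR, where 13.0% of 12675 genes passed. *Actg2* lost the call without replicate 2 or 3 of the *Pelo* controls, 2 or 3 of the *Upf2* cKO or 1 or 3 of its controls (0.0525 to 0.0745). *Lmod1* lost it without replicate 1 or 3 of *Pelo*-/-, 1 or 2 of its controls, 2 or 3 of the *Upf2* cKO or 1 or 3 of its controls (0.0752 to 0.0995). These fits count the near-repeated controls of each batch as separate libraries. With the mutants compared directly, without controls, *Actg2* (0.042) and *Lmod1* (0.00857) also differed between the libraries labelled *Upf2* cKO and *Hbs1l*-/- (edgeR). *Myl9* (0.0235) then differed between the libraries labelled *Upf2* cKO and *Pelo*-/- (edgeR). Each mutant was sequenced in a batch of its own, so that without controls genotype and batch cannot be told apart.

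RNA of the mutants was compared in the same way. It was higher in *Pelo*-/- than in *Hbs1l*-/- MEFs for 8 members, all but *Smtn*, whereas 35.2% of 14878 genes differed, with 18.9% higher. *Myh11* differed most (log2 1.32, SE 0.13, adjusted p = 0.000441, edgeR), then *Lmod1* (0.70, SE 0.10, adjusted p = 0.00178, edgeR) and *Actg2* (0.60, SE 0.13, adjusted p = 0.00833, edgeR). Groups did not overlap in any of the 8, though the share of all genes without overlap was not counted here either. Without *Pelo*-/- replicate 1, *Acta2*, *Actg2*, *Cnn1* and *Tpm2* lost the call (0.0656 to 0.14), and without replicate 2, *Acta2*, *Tagln*, *Cnn1* and *Tpm2* did (0.0525 to 0.217). *Tpm2* also lost it without *Hbs1l*-/- replicate 2 (0.0797) or 3 (0.0841). Between the libraries labelled *Upf2* cKO and *Hbs1l*-/-, RNA was higher for *Myl9* (0.94, SE 0.14), *Actg2* (0.68, SE 0.15), *Lmod1* (0.62, SE 0.11), *Myh11* (0.54, SE 0.13) and *Cnn1* (0.47, SE 0.13) and lower for *Smtn* (-0.43, SE 0.12), 6 members where 27.1% of 16223 genes passed. The adjusted p values of the 6 were 0.00132 to 0.0255 (edgeR). *Cnn1* lost its call without *Hbs1l*-/- replicate 1 or 2 or the mutant's replicate 1 or 3 (0.0629 to 0.113). *Myh11* lost it without *Hbs1l*-/- replicate 3 (0.0508) or *Upf2* cKO replicate 1 (0.053). *Smtn* lost it without replicate 1 or 3 of the former or 1 or 2 of the latter (0.0666 to 0.0762). Against *Pelo*-/-, the libraries labelled *Upf2* cKO had less RNA of *Myh11* (-0.77, SE 0.12, adjusted p = 0.00215, edgeR) and *Smtn* (-0.39, SE 0.11, adjusted p = 0.0311, edgeR), where 28.9% of 15525 genes passed. *Smtn* lost that call without either *Pelo*-/- library or without replicate 1 or 2 of the *Upf2* cKO (0.0677 to 0.244).

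Other genes of the pathway were counted from lists written from general knowledge. Over all genes tested, footprints were lower for 16.7% and higher for 17.4% in *Hbs1l*-/-, 21.2% and 22.9% in *Pelo*-/-, and 21.1% and 22.3% in the libraries labelled *Upf2* cKO. For RNA these shares were 10.4% and 12.7%, 16.6% and 15.5%, and 6.76% and 13.2%, and for TE in the last 2 mutants 18.6% and 21.9%, and 10.4% and 7.60%. Of 10 genes for SRF, its coactivators and partners, 5 had fewer footprints in *Hbs1l*-/-, 5 in *Pelo*-/- and 8 in the libraries labelled *Upf2* cKO, where *Klf4* rose (0.35). Myocardin, *Myocd*, fell in all of them, with log2 fold changes of -0.74, -1.50 and -0.65. In RNA, 1 of these genes rose and 1 fell in *Hbs1l*-/-, *Srf* (0.31) and *Myocd* (-1.13), 3 rose and 1 fell in *Pelo*-/-, and 2 fell in the libraries labelled *Upf2* cKO. The contraction switch, 12 genes for the light chain kinase and phosphatase and the channels and kinases that act on them, had 7 lower in *Hbs1l*-/-, 8 lower and 2 higher in *Pelo*-/-, and 5 lower and 1 higher in the libraries labelled *Upf2* cKO. *Kcnmb1*, a subunit of the calcium-activated potassium channel, fell the most, by 1.80, 1.87 and 2.29 on the log2 scale, while *Mylk*, the light chain kinase, rose by 0.57 in *Pelo*-/- and by 0.67 in the libraries labelled *Upf2* cKO. RNA of the switch fell for 6, 6 and 4 genes and rose for 0, 1 and 0.

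Of 13 or 14 cytoskeletal paralogues tested, 5 were lower and 1 higher in *Hbs1l*-/-, 4 and 3 in *Pelo*-/-, and 6 and 1 in the libraries labelled *Upf2* cKO. Skeletal alpha actin, *Acta1*, fell by 2.28, 2.02 and 2.98 on the log2 scale, and the nonmuscle heavy chain *Myh9* rose by 0.29 in *Hbs1l*-/- and 0.20 in the libraries labelled *Upf2* cKO. Of 14 focal adhesion and filament genes, 8 were lower and 2 higher in *Hbs1l*-/-, 6 and 0 in *Pelo*-/-, and 7 and 1 in the libraries labelled *Upf2* cKO, and *Synpo2*, synaptopodin-2 of the Z-disc and dense bodies, fell by 1.06 and 1.13 in the first pair. Of 10 TGF-beta pathway genes, 3 were lower and 1 higher in *Hbs1l*-/-, 4 and 2 in *Pelo*-/-, and 4 and 1 in the libraries labelled *Upf2* cKO. *Tgfb2* fell in all, with log2 fold changes of -0.87, -1.54 and -0.78. In RNA of *Pelo*-/- cells 7 of these genes rose and 1 fell, with *Smad7*, an inhibitor of the pathway, at 0.86, and 7 adhesion genes rose and 1 fell. Paralogues in RNA were lower for 2 genes and higher for 0 there. RNA of *Hbs1l*-/- had 6 paralogues lower and 0 higher, 5 adhesion genes lower and 1 higher, and 2 TGF-beta genes lower and 1 higher. The libraries labelled *Upf2* cKO had 6, 5 and 1 lower and none higher in these 3 lists. For TE in *Pelo*-/-, lower values were found for 6 SRF genes, 2 of the switch, 2 paralogues, 7 adhesion genes and 5 TGF-beta genes, and higher values for 0, 3, 1, 1 and 1. In *Hbs1l*-/- no gene of the 5 lists passed for TE, and in the libraries labelled *Upf2* cKO 3, 1, 1, 0 and 1 were lower and 0, 1, 3, 1 and 0 higher.

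Markers of other cell types were measured beside the members in MEFs. Of 8 fibroblast markers, most moved opposite to the members by edgeR, with 7 higher and 1 lower in *Hbs1l*-/- and in *Pelo*-/-, and 6 higher and 2 lower in the libraries labelled *Upf2* cKO. *Pdgfra* had log2 fold changes of 2.23, 3.39 and 2.08 and *Fn1* of -0.43, -0.64 and -0.20. Their summed footprints were 33738 to 36556 CPM in *Hbs1l*-/-, 34614 to 38186 in *Pelo*-/-, 38354 to 41321 in the libraries labelled *Upf2* cKO and 33238 to 36379 CPM in controls. Of 5 pericyte markers, 2 rose and 1 fell in *Hbs1l*-/-, 0 and 1 in *Pelo*-/-, and 3 and 1 in the libraries labelled *Upf2* cKO. *Rgs5* fell by 2.49, 4.01 and 2.46 on the log2 scale, while *Cspg4* rose by 0.19 in *Hbs1l*-/- and 0.60 in the libraries labelled *Upf2* cKO, where *Kcnj8* rose by 2.56. Pericyte sums were 1017 to 1127 CPM in *Hbs1l*-/- against 995 to 1045, 957 to 986 in *Pelo*-/- against 990 to 1025, and 1322 to 1471 in the libraries labelled *Upf2* cKO against 1006 to 1037 CPM. They lay below their controls in *Pelo*-/- and above them in the last group. Endothelial sums were 36.0 to 38.8 CPM in *Hbs1l*-/- against 49.7 to 61.2, 24.9 to 31.0 in *Pelo*-/- against 48.5 to 65.8, and 48.8 to 58.8 against 50.0 to 64.6 CPM in the libraries labelled *Upf2* cKO. Granule neuron markers, almost all of it *Zic1*, summed to 16.6 to 16.9 CPM against 27.3 to 34.3, 10.7 to 15.0 against 25.3 to 32.5, and 12.3 to 24.7 against 25.6 to 33.9 CPM in the same order. Skeletal muscle markers summed to 4.48 to 5.08 CPM in *Hbs1l*-/- against 11.2 to 18.9, 4.39 to 14.5 in *Pelo*-/- against 11.3 to 20.6, and 7.05 to 11.8 in the libraries labelled *Upf2* cKO against 13.0 to 18.4 CPM. Decidua markers summed to 574 to 646 against 638 to 733, 494 to 583 against 621 to 743, and 528 to 550 against 637 to 753 CPM in that order. Below their controls, as most members did, thus lay the granule neuron sums in all 3 mutants, the endothelial sums in *Hbs1l*-/- and *Pelo*-/-, the skeletal muscle sums in *Hbs1l*-/- and the libraries labelled *Upf2* cKO, and the decidua sums in *Pelo*-/- and the libraries labelled *Upf2* cKO. Cardiomyocyte sums overlapped with their controls in each mutant, with 6.09 to 33.0 against 9.84 to 33.5, 6.43 to 12.5 against 9.89 to 32.7, and 7.81 to 70.1 against 10.3 to 33.0 CPM. Trophoblast markers were at most 0.901 CPM in any MEF group. In RNA, skeletal muscle markers summed to 2.33 to 2.95 CPM in *Hbs1l*-/-, 8.84 to 9.48 in *Pelo*-/- and 5.15 to 8.82 in the libraries labelled *Upf2* cKO, against 6.86 to 9.65 CPM in controls. Endothelial markers summed to 14.1 to 17.8, 26.5 to 32.5 and 14.2 to 16.8 against 19.6 to 25.1 CPM, granule neuron markers to 7.57 to 10.1, 14.5 to 17.3 and 9.47 to 11.6 against 12.7 to 15.3 CPM, and decidua markers to 259 to 269, 298 to 306 and 301 to 345 against 344 to 394 CPM. In *Hbs1l*-/- RNA all 4 of these sums thus lay below the controls, where 8 members fell. The endothelial and granule neuron sums in the libraries labelled *Upf2* cKO and the decidua sum in *Pelo*-/- also did. Only 2 members passed as lower in each of these mutants. The endothelial sum of *Pelo*-/- lay above the controls. Of the decidua markers in *Hbs1l*-/- RNA, *Cryab* fell by 0.86 and *Gja1* rose by 0.40 on the log2 scale. Fibroblast markers in RNA rose for 6 and fell for 1 in *Hbs1l*-/-, rose for 2 in *Pelo*-/- and passed for 0 in the libraries labelled *Upf2* cKO, with sums of 6850 to 11440, 13526 to 14047 and 6106 to 7526 against 5467 to 8915 CPM. Pericyte sums were 243 to 361, 353 to 377 and 216 to 285 against 237 to 323 CPM, and cardiomyocyte sums 9.03 to 18.6, 12.9 to 14 and 20.3 to 24.8 against 14.1 to 30.3 CPM. The part of these cell types in the members' changes was not tested, and in bulk samples fewer cells of a type cannot be told apart from less RNA per cell.

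In E8.5 embryos lacking *Hbs1l*, 1 of the 8 members tested passed, *Myl9*, which was lower, where 1.87% of 11416 genes passed. Without *Lmod1*, which passed the filter on low counts through the wild type alone, the median over 7 members was -0.38, beside 0.01 over all genes. *Myl9* had 52.9, 42.3 and 46.4 CPM in *Hbs1l*-/- and 86.5, 79.8 and 103 CPM in wild-type pools (log2 fold change -0.92, SE 0.17, adjusted p = 0.02, edgeR). The groups did not overlap, and the call was lost without *Hbs1l*-/- replicate 2 (0.0591) or without wild-type replicate 1, 2 or 3 (0.0934, 0.0681 and 0.155). *Acta2* had 495, 430 and 470 CPM against 593, 596 and 632 CPM (log2 fold change -0.38, SE 0.13, adjusted p = 0.146, edgeR). *Tagln* had 92.0, 57.6 and 49.0 CPM against 127, 104 and 107 CPM (log2 fold change -0.75, SE 0.21, adjusted p = 0.0869, edgeR). *Cnn1* had 15.6, 13.6 and 8.35 CPM against 24.9, 15.7 and 20.5 CPM (log2 fold change -0.66, SE 0.29, adjusted p = 0.243, edgeR). These 3 genes lay below the wild type in every pool without passing, and the share of all genes that did so was not counted. Without *Hbs1l*-/- replicate 1 *Acta2* (0.0248) and *Tagln* (0.000563) passed by edgeR, but calls over all genes also rose, from 214 to 2309. *Tagln* also passed with DESeq2 (0.037).

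*Tpm2* in embryos had 54.5, 43.8 and 81.3 CPM against 58.1, 56.3 and 52.4 CPM, with *Hbs1l*-/- replicate 3 the highest. *Smtn* had 52.3, 50.3 and 37.7 CPM against 51.8, 46.4 and 49.2 CPM. *Actg2* had 5.10, 4.78 and 5.08 CPM against 2.77, 7.35 and 3.19 CPM. All 3 overlapped and were not called. *Lmod1* rested on 13, 11 and 2 footprints against 12, 12 and 12, and it reached the minimum for testing in the 3 wild-type pools and in 0 of the *Hbs1l*-/- pools, so that it is given as counts. *Myh11* had 4, 6 and 0 footprints against 1, 14 and 4 and did not reach the minimum for testing. Cardiomyocyte markers were lower here, as was *Myl9*, the only member called. They summed to 378 to 502 CPM in *Hbs1l*-/- and 747 to 971 CPM in wild-type pools. By edgeR 5 of 6 were lower, among them *Nppa* (-2.55), which encodes atrial natriuretic peptide, and *Myh7* (-1.04), a cardiac myosin heavy chain. Of the cytoskeletal paralogues, cardiac alpha actin *Actc1* (-1.06) and *Acta1* (-1.51) fell. Trophoblast markers summed to 82.3 to 640 against 5.31 to 7.90 CPM, 3 of 4 tested higher, endothelial markers to 525 to 694 against 450 to 473 CPM, 1 of 5 higher, and decidua markers to 1027 to 1257 against 799 to 956 CPM, with none called. Fibroblast markers summed to 1741 to 2265 against 2024 to 2885 CPM, 2 of 8 lower, and pericyte markers to 94.7 to 152 against 106 to 122 CPM. Granule neuron markers summed to 1.26 to 2.41 against 6.34 to 8.15 CPM, below the wild type in every pool, and the 1 tested was not called. The part of these cells in the members' levels was not tested.

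In the P14 cerebellum no member passed (edgeR), where 0.0624% of 14430 genes passed, and DESeq2 called none. An unadjusted p under 0.05 was found for 4 members and for 13.4% of all genes. Without *Lmod1*, which passed the filter through the controls alone, 3 of 8 members had such a p and the median was -0.53, beside 0.00 over all genes. *Myh11*, which marks arterial muscle cells in brain vessels, had 4.71, 4.19 and 3.46 CPM in the cKO and 12.6, 10.8 and 3.18 CPM in controls (log2 fold change -1.09, SE 0.45, adjusted p = 0.339, edgeR). *Acta2* had 20.3, 23.1 and 24.6 CPM against 40.1, 33.4 and 19.0 CPM (log2 fold change -0.44, SE 0.25, adjusted p = 0.492, edgeR). In both genes control replicate 3 lay below every cKO library, and without it both passed by edgeR, *Acta2* at 0.0396 and *Myh11* at 0.0149. Calls over all genes also rose without that library, from 9 to 560. *Tagln* had 5.87, 7.38 and 6.80 CPM against 10.7, 12.4 and 7.68 CPM (log2 fold change -0.62, SE 0.21, adjusted p = 0.266, edgeR). Its groups did not overlap. *Lmod1* rested on 3, 3 and 6 footprints against 12, 16 and 12, and it reached the minimum for testing in the 3 control libraries and in 0 of the cKO, so that it is given as counts.

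The other cerebellar members overlapped between groups. *Tpm2* had 12.2, 16.1 and 14.5 CPM against 38.7, 21.1 and 15.9 CPM (log2 fold change -0.81, SE 0.30, adjusted p = 0.3, edgeR), and *Myl9* 19.0, 21.3 and 25.7 CPM against 29.0, 29.6 and 24.5 CPM. *Smtn* had 11.1, 10.2 and 10.3 CPM against 17.5, 14.7 and 7.40 CPM, and *Actg2* 1.11, 1.28 and 1.32 CPM against 1.17, 0.944 and 1.18 CPM. *Cnn1* rested on 8, 6 and 4 footprints against 12, 14 and 7. Control replicate 3 was the lowest control for 8 of the 9 members, *Actg2* being the exception. Endothelial markers summed to 175 to 204 CPM in the cKO and 177 to 290 in controls, pericyte markers to 253 to 262 and 228 to 319, fibroblast markers to 1917 to 3573 and 1660 to 5151, skeletal muscle markers to 10.7 to 13.6 and 4.09 to 60.8, and granule neuron markers to 2373 to 2941 and 2573 to 4165 CPM. None of these markers was called, and their part in the members' levels was not tested.

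**Figure D5:**
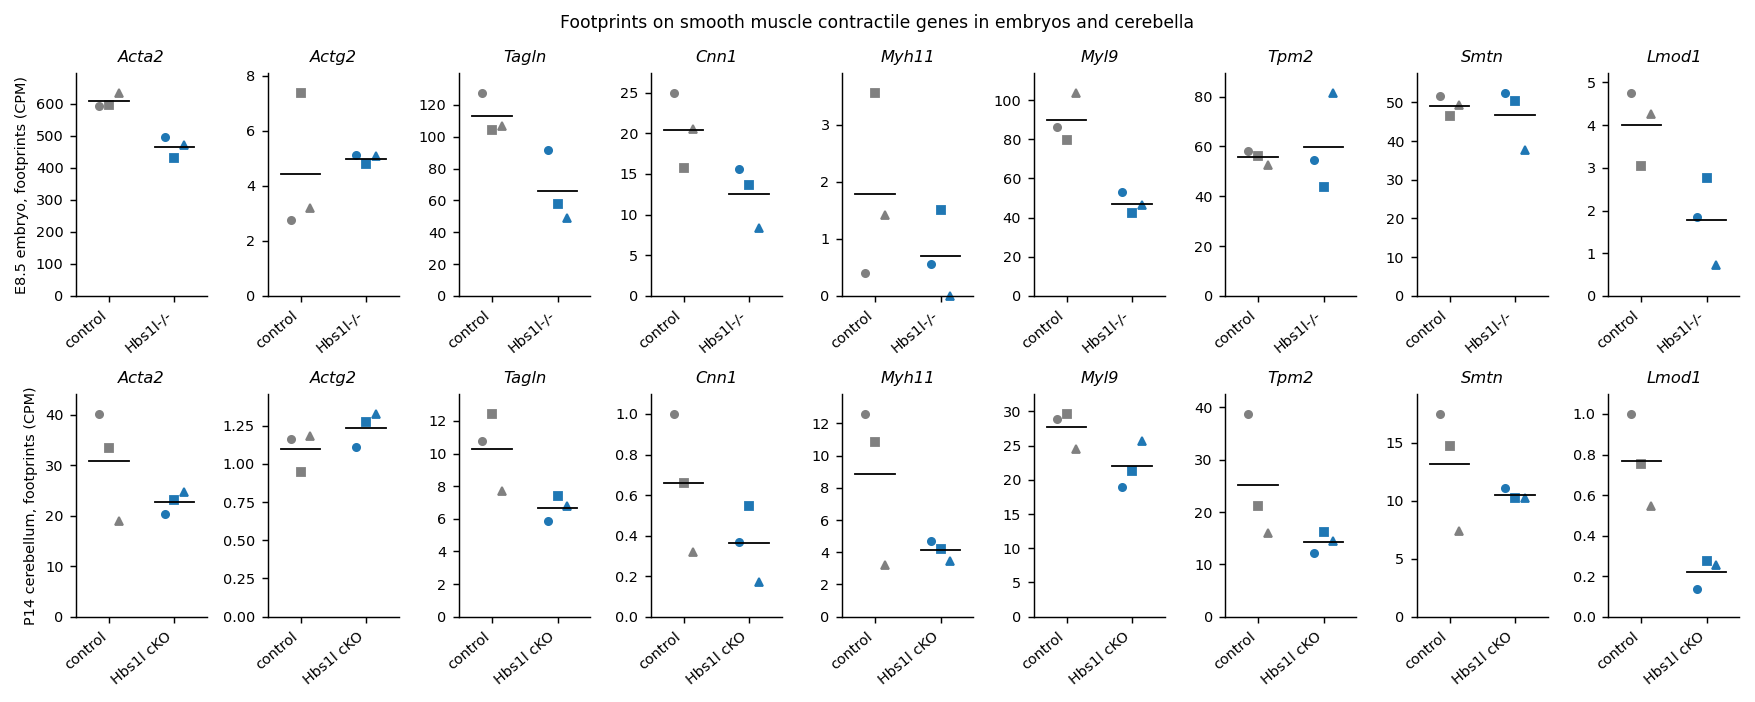
Footprints (CPM) on each member in E8.5 embryos (top) and P14 cerebella (bottom), controls in grey and *Hbs1l* mutants in blue, each point 1 library, its shape the replicate number, and lines the means. *Myl9* in embryos lies at 42.3 to 52.9 CPM in mutants and 79.8 to 103 CPM in controls. In cerebella control replicate 3 (triangle) lies below the mutants for *Acta2*, *Myh11* and *Smtn*, among them for *Tpm2*, *Myl9*, *Actg2* and *Cnn1*, and above them for *Tagln* and *Lmod1*.

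The effect of *Hbs1l* loss was compared between the tissues. Between embryo and cerebellum no member differed (edgeR), where 0.732% of 14624 genes passed, and DESeq2 called none. An unadjusted p under 0.05 was found for 2 of the 9 members, *Myl9* and *Tpm2*, and for 15.7% of all genes. The 9 include *Myh11* and *Lmod1*, whose embryo counts were too low for a test of their own. Between embryo and MEFs *Actg2* differed, where 7.46% of 13062 genes passed, with a difference of 1.28 (SE 0.34, adjusted p = 0.032, edgeR). It fell in MEFs, where it was at 1025 CPM or more, and stood at 2.77 to 7.35 CPM in embryos. The call was lost without wild-type embryo replicate 1 or 3, *Hbs1l*-/- MEF replicate 1 or 2 or MEF control replicate 2 or 3 (0.0514 to 0.0967). Without *Myh11* and *Lmod1*, too rare in embryos, the differences of the other 6 members ran from -0.18 for *Smtn* (SE 0.17) to 0.68 for *Tpm2* (SE 0.23, adjusted p = 0.0789, edgeR), and that of *Myl9* was 0.11 (SE 0.18).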

How the data were processed

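Footprints were measured in 30 libraries and RNA in 11. The authors deposited footprint counts per gene: adapters were clipped, ribosomal RNA was removed with Bowtie2 2.2.3, and reads were mapped with HISAT2 2.1.0 to mm10 with Gencode M24 and counted on coding sequences with featureCounts. The RNA files the authors deposited give kallisto 0.42.4 estimated counts, and TPM, for each transcript. Here transcripts were added up by gene and rounded to whole numbers.

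Tests used edgeR 4.0.16 (R 4.3.3) on the libraries of the groups compared, with its default filter on low counts, TMM factors, the quasi-likelihood test and Benjamini-Hochberg adjustment over all genes tested, with a threshold of 0.05. Histone genes were left out of tests with footprints, following the study's methods. Standard errors are the log2 fold change over the square root of F. TMM factors were set within each assay for TE. The edgeR fits of a subset of the comparisons were tested on simulated data, but the outcome is not given here and no result rests on it. DESeq2 1.42.0, RLE factors, no filter, a replicate block, controls summed over batches and each library left out were the alternatives. RPKM used the union of coding exons in Gencode M21, and coordinates are from GRCm38.

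The members and gene lists were chosen with earlier results of these data known. The naming rule covers all members, the targeted genes, up to 2 of each list with the largest change each way, the 8 genes whose footprints in MEFs, with a mean of at least 5 CPM, correlate best with the members' mean, and transcripts with at least 5% of a member's TPM. The text gives examples of the list genes, and 1 of the 8 is not reported here. Replicates came from separate embryos, mice or pools. Replicate numbers are shared between groups, and no comparison had every same-numbered correlation of deviations over 0.1, so that no pairing was used. Counts carry no molecular identifiers, and depth limits the rarest members, as given beside their counts.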

Additional observations from a re-analysis of the deposited data

Results flagged for a closer look

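Several members differed between mutants, or between tissues, by a test of the difference itself (edgeR). Many of these calls were lost without single libraries, as given above. Over all genes, 35.2% passed for RNA of *Pelo*-/- against *Hbs1l*-/-. For RNA of *Upf2* cKO against *Hbs1l*-/- and *Pelo*-/- the shares were 27.1% and 28.9%, and for footprints 4.93% and 13.0%. Between embryo and MEFs 7.46% passed. RNA levels in MEFs were higher in *Pelo*-/- than in *Hbs1l*-/-. On the log2 scale the differences were 0.42 for *Acta2*, 0.60 for *Actg2*, 0.56 for *Tagln* and 0.56 for *Cnn1*. They were 1.32 for *Myh11*, 0.57 for *Myl9*, 0.34 for *Tpm2* and 0.70 for *Lmod1*. The libraries labelled *Upf2* cKO exceeded *Hbs1l*-/- in RNA by 0.68 for *Actg2*, 0.47 for *Cnn1*, 0.54 for *Myh11*, 0.94 for *Myl9* and 0.62 for *Lmod1*, with *Smtn* at -0.43. Against *Pelo*-/- their RNA differed by -0.77 for *Myh11* and -0.39 for *Smtn*. In footprints the libraries labelled *Upf2* cKO exceeded *Hbs1l*-/- by 1.29 for *Myh11* and 0.56 for *Myl9*, and *Pelo*-/- by 0.77 for *Actg2*, 1.32 for *Myh11* and 0.65 for *Lmod1*. With *Hbs1l* loss the log2 fold change of *Actg2* footprints was -1.20 in MEFs and 0.12 (SE 0.46, not called) in embryos. The fitted difference, embryo minus MEF, was 1.28.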

How the results depend on the processing

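Over 2150 values of members under an alternative, 80 changed sign, none of them called, 91 lost a call and 47 gained one. Counts of members called kept within 1.5 times except as follows. In embryos 2 members passed with DESeq2, without the filter and with the replicate block, against 1. In RNA, *Pelo*-/- had 4 with DESeq2 and 1 with the replicate block, against 2, and the libraries labelled *Upf2* cKO 4 with DESeq2 and 1 without the filter, against 2. TE in the latter had 2 with DESeq2, against 1. The footprint difference between *Upf2* cKO and *Hbs1l*-/- had 1 with the replicate block and 4 with the mutants compared directly, an alternative chosen after seeing the data, against 2. The replicate block ended the calls of *Smtn* in *Upf2* cKO footprints (adjusted p = 0.0871), *Myl9* in *Pelo*-/- RNA (0.0674) and in the footprint difference of *Upf2* and *Hbs1l* (0.0624), and *Tpm2* (0.106) and *Smtn* (0.0525) in the RNA differences of *Pelo* and of *Upf2* from *Hbs1l*. It added *Tagln* in embryos (0.0138), *Tpm2* in *Pelo*-/- footprints (0.00853) and *Upf2* cKO RNA (0.0396), *Myl9* in *Pelo*-/- TE (0.0291) and in the footprint difference of *Upf2* and *Pelo* (0.0362), and *Acta2* in the same difference of RNA (0.0154, edgeR), and changed no other member's call. The groups share only replicate numbers. The difference between embryo and MEFs had 3 with DESeq2 and 2 without the filter, against 1.

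Leaving out 1 library at a time gave 0 to 3 members in embryos, 0 to 2 in cerebella, 8 for *Hbs1l*-/-, 7 to 8 for *Pelo*-/- and 6 to 8 for *Upf2* cKO footprints. RNA gave 7 to 8, 0 to 5 and 1 to 3, TE 0, 3 to 7 and 1 to 3. Differences gave 0 (*Pelo* and *Hbs1l*), 1 to 3 (*Upf2* and *Hbs1l*) and 1 to 4 (*Upf2* and *Pelo*) for footprints, 4 to 8, 3 to 5 and 1 to 3 in the same order for RNA, 0 between embryo and cerebellum and 0 to 2 between embryo and MEFs. Over all genes, calls in embryos numbered 214, and 28 to 2309 with 1 library left out (2309 without *Hbs1l*-/- replicate 1), and 415 with DESeq2. In cerebella they numbered 9, and 0 to 560 with 1 library left out (560 without control replicate 3), and 476 with DESeq2. The cause was not tested. Calls over all genes in MEF footprints, with 1 library left out, numbered 2913 to 4078 for *Hbs1l*-/-, against 4083. They numbered 4270 to 5217 for *Pelo*-/-, against 5502, and 4174 to 5136 for *Upf2* cKO, against 5279. RNA gave 1817 to 2663 for *Hbs1l*-/-, against 3542, and 1800 to 3201 for *Upf2* cKO, against 3194. Ranges over all genes that rest on *Pelo*-/- RNA are not given, because leaving out 1 of its 2 libraries leaves a single library. TE in *Upf2* cKO gave 1375 to 2778, against 2392. The difference between embryo and MEFs gave 457 to 2757, against 974. Embryo depth limits *Myh11*, *Lmod1* and *Actg2*, and cerebellar depth *Lmod1* and *Cnn1*.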
